A study of Homo sapiens with 3 samples.

Results

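Integrins, laminin chains and the proteins of focal adhesions were examined in HT29 cells, an established human colorectal adenocarcinoma line, on 3 growth surfaces. The 40 genes were taken by symbol, out of 21610 genes with a matched probe on the array. They comprised 11 integrin alpha subunits, 8 integrin beta subunits, 5 laminin chains with the hemidesmosomal collagen COL17A1, 10 integrin activators or actin linkers, and 5 signalling kinases or scaffolds. All 40 had a probe. The question put to the array was how gene expression in HT29 differed between substrates, and here it was asked which adhesion receptors the cells expressed and how each level stood on the membranes against plastic.

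The control cells, labelled 2D, were grown on tissue culture polystyrene (TCP). The others were grown on membranes of chitosan (CS), the deacetylated form of chitin, or on chitosan grafted with hyaluronan (CSHA), a glycosaminoglycan of the extracellular matrix. The cells carried no engineered allele and received no drug, and the line and culture medium were common to the 3 groups. The time on each substrate before RNA was taken for the arrays was not given in the sources used here. Each condition was 1 single-colour array, so no difference had a replicate check and no test was possible.

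Integrins are receptors made of 1 alpha and 1 beta subunit. They bind matrix outside the cell and, through talin, kindlin, vinculin and related linkers, connect to actin inside it, where the kinases FAK and SRC relay signals. The pair of ITGA6 and ITGB4 instead ties laminin-rich basement membrane to keratin filaments in hemidesmosomes. In colon epithelium, laminins of the basement membrane are the main ligands on the basal side of the cells.

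Levels are given as the log2 processed signal minus the 75th percentile of the same array, so that 0 is the signal at that percentile. Levels were compared between arrays for the same probe and never between genes. A probe counted as measured on an array where the scanner software called it well above background. The error attached to a difference, called the spot error, is the standard error from the spread among spots of a probe. For probes printed once, the spread was the median over probes printed 10 times in the same brightness bin, with 5 bins per array. The dimmest bin on TCP ran from levels of -3.73 to -0.45, so genes across that range were given the same spread. The spot error covers spots on 1 slide and not the spread between cultures. A difference of at least 2-fold was used as the rule of size.

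On the 3 arrays, between 48.6% and 51.1% of 50599 probes were well above background, no spot was saturated, and the 75th percentile of the processed signal lay between 337 and 423. The 7 brightest spike-in probes had mean log2 signals of 12.5 on TCP, 12.7 on CS and 12 on CSHA, lower on CSHA than on the others. All 10 markers of colon epithelium were measured on every array, with a summed level between 978 and 1075 times the 75th percentile. Of 9 fibroblast markers, 2 were measured on TCP (SPARC and VIM), 0 on CS and 1 on CSHA (PDGFRB), with summed levels of 0.302, 0.138 and 0.389. COL1A1, COL1A2, COL3A1 and DCN were not well above background on any array. Of 8 leukocyte markers with a probe, 6, 6 and 7 were measured, with summed levels of 4.13, 5.01 and 7.15, and without the monocyte marker CD14 these sums were 1.77, 1.68 and 2.31. Of 7 platelet and endothelial markers, 5 were measured on each array, with sums between 0.805 and 0.905. The part of these signals in the differences below was not tested.

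Most of the adhesion genes were expressed on every surface. Well above background were 34 of the 40 genes for TCP cells and 36 for each membrane, where the shares over all genes were 64.7%, 66.7% and 65.9%. The same 34 were measured on all 3 arrays. ITGB2, the beta subunit of leukocyte integrins, ITGB3, the beta subunit of platelet and endothelial integrins, and the kindlin FERMT2 were not well above background on any array. ITGA5, ITGA10 and ITGA11 were measured on some arrays but not on TCP. Of 24 known integrin pairs, 12 had both subunits measured on all 3 arrays. These 12 were ITGB1 with ITGA1, ITGA2, ITGA3, ITGA6, ITGA7, ITGA9 and ITGAV, then ITGB4 with ITGA6, ITGAV with ITGB5, ITGB6 and ITGB8, and ITGAE with ITGB7. Chains for 5 of the 6 laminin trimers looked up were measured on every array, the exception being the trimer with LAMA1. No trimer with LAMA2 was among the 6, and LAMA2 was not well above background on CSHA. LAMA4, the alpha chain of another of the 6, had a processed signal of 28.3 on TCP. The lowest signal well above background there was 24.1. RNA of both subunits does not show that the pair was made.

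**Figure D1:**
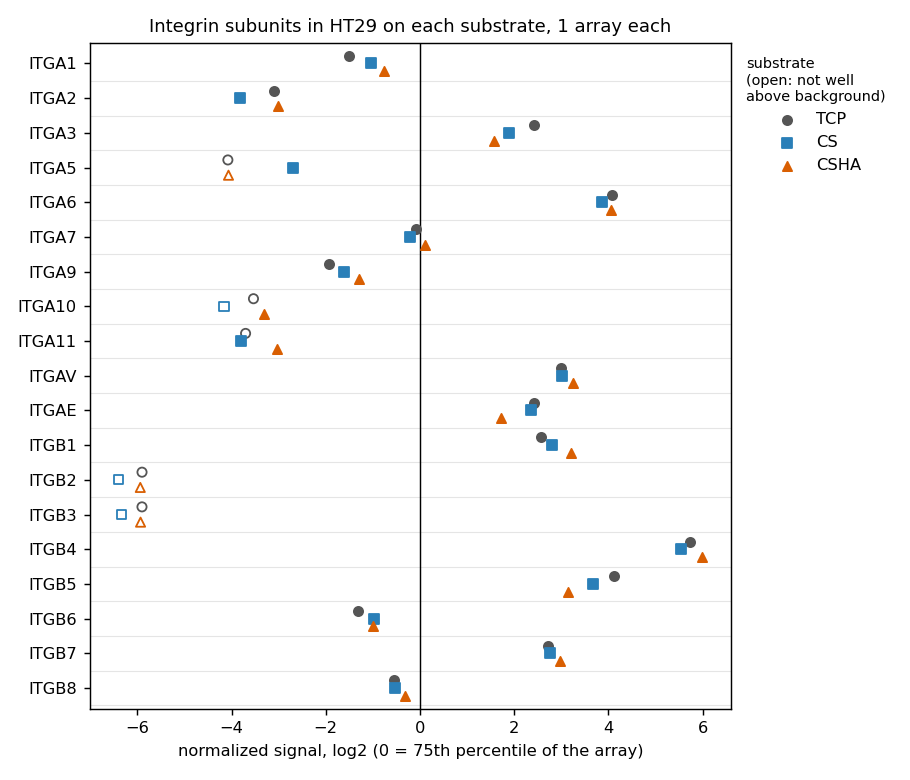
Normalised signal of the 19 integrin subunits (x axis, log2, 0 at the 75th percentile of each array) on TCP (circles), CS (squares) and CSHA (triangles), 1 array each, with open symbols for probes not well above background. ITGB5 and ITGA3 stepped down from TCP to CSHA and ITGB1 stepped up, while ITGB2 and ITGB3 had open symbols on all 3 arrays.

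Against polystyrene, few of the 40 genes differed by 2-fold. On CS, 1 of the 35 genes compared was at least 2-fold higher than on TCP (all genes, 1.36%), namely ITGA5 as a lower bound, and 0 were at least 2-fold lower (all genes, 1.92%). On CSHA, 1 of 36 was at least 2-fold higher (SRC, with 3.02% of all genes) and 2 were at least 2-fold lower (TLN1 and ZYX, with 3.98% of all genes). Between the membranes, 1 of 37 was at least 2-fold higher on CSHA than on CS (SRC, with 2.27% of all genes) and 2 were at least 2-fold lower (TLN1, and ITGA5 as a bound, with 2.15% of all genes). These counts of 0 to 2 genes stood near the shares over all genes, and nothing is read from them about the list as a whole. At 1.5-fold, CS against TCP held 1 member above (all genes, 4.11%) and 2 below (5.03%), CSHA against TCP 6 above (11.5%) and 7 below (11.2%), and CSHA against CS 5 above (7.68%) and 4 below (7.33%). The 3 comparisons share arrays and are not independent of each other.

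The median difference of the members was -0.06 on CS and 0.20 on CSHA against TCP, beside 0.04 and 0.13 over all genes compared. Between CSHA and CS it was 0.21, beside 0.07 over all genes. Of the members, 16 of 35 were higher on CS than on TCP (45.7%, all genes 56.8%) and 22 of 36 were higher on CSHA than on TCP (61.1%, all genes 61.7%). CSHA was higher than CS for 26 of 37 (70.3%, all genes 58.5%). These shares moved with the scaling, to 10 of 35 on CS against TCP with the percentile over detected probes (28.6%, all genes 48.7%) and, with spike-in scaling, to 29 of 36 on CSHA against TCP (80.6%, all genes 84.2%) and 32 of 37 on CSHA against CS (86.5%, all genes 86.6%). Scaling to spike-in probes in place of the 75th percentile shifted the median of all genes on CSHA against TCP to 0.56 and that of the members to 0.63, so that the members lay 0.08 above all genes under either scaling. The scaling therefore decides the sign of small differences on CSHA, and the genes past 2 spot errors whose direction turned with it are named where they appear.

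**Figure D2:**
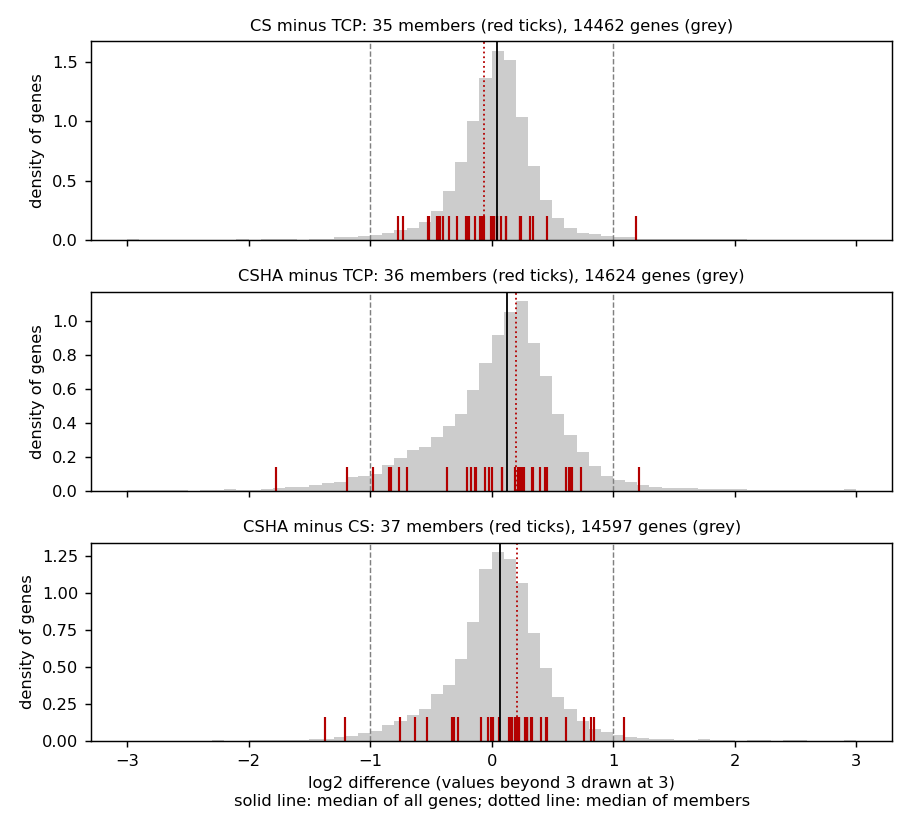
Log2 differences (x axis) of the members (red ticks) over the density of all genes compared (grey), in 1 panel each for CS minus TCP, CSHA minus TCP and CSHA minus CS. The members lay within the bulk of all genes apart from a few on CSHA and, on CS, ITGA5 with a lower bound of 1.19. Medians of the members were -0.06, 0.20 and 0.21 (dotted) beside 0.04, 0.13 and 0.07 over all genes (solid).

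Single genes stood apart from the spread between spots more often than they reached 2-fold. Of the members measured on both arrays, 21 of 34 differed by more than 2 spot errors between CS and TCP (all genes, 51.7%), 26 of 34 between CSHA and TCP (68.6%), and 29 of 35 between CSHA and CS (59.5%). ITGA3, ITGB5, LAMA5, TLN1 and ZYX were lower at both steps, from TCP to CS and from CS to CSHA, by more than 2 spot errors each. These 5 were 14.7% of the 34 members measured on all arrays, where 6.87% of 13486 genes had that order, and ITGA3 and LAMA5 lost it under spike-in scaling, with 0.07 and 0.05 for CSHA against CS. FERMT1, ITGB1, SRC and TLN2 were higher at both steps, 11.8% of the members beside 11.4% of all genes.

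**Figure D3:**
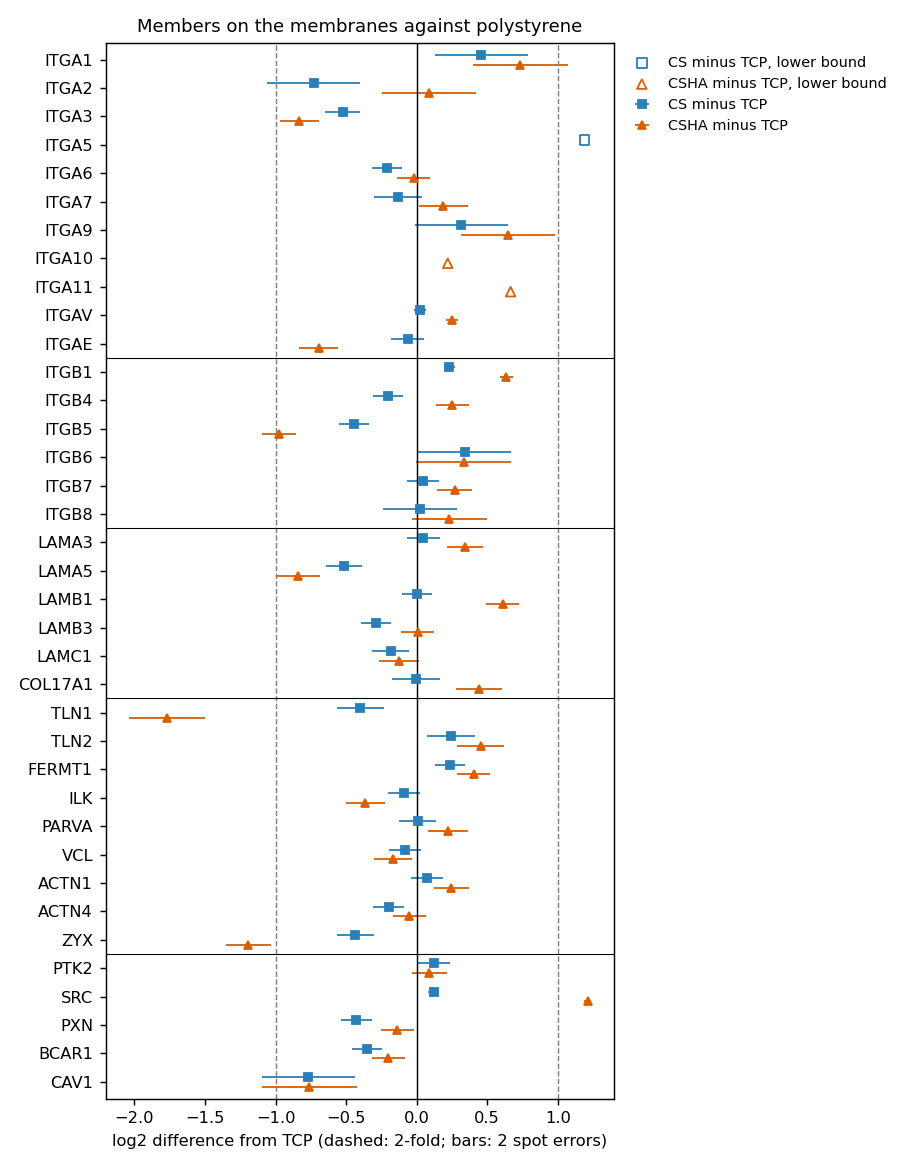
Log2 difference from TCP (x axis) of each member compared, for CS (blue squares) and CSHA (orange triangles), with bars of 2 spot errors, open symbols for lower bounds, dashed lines at 2-fold, and black lines between the roles. TLN1 at -1.77 and ZYX at -1.19 lay past 2-fold on the low side for CSHA and SRC at 1.21 on the high side, while the CS values of these 3 genes lay between -0.44 and 0.12.

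Among the alpha subunits that pair with ITGB1 and bind laminin, ITGA3 was lower on both membranes. ITGA3 (NM_002204) had levels of 2.41 on TCP, 1.89 on CS and 1.58 on CSHA. It was lower than on TCP by 0.53 ± 0.06 (spot error, 1 spot per array) on CS and by 0.83 ± 0.07 on CSHA, or 1.78-fold. ITGA6, which also pairs with ITGB4, had levels of 4.08, 3.87 and 4.06 on the same arrays. Its second probe read 3.56, 3.75 and 3.88, so the probes gave opposite signs, -0.21 and 0.19 for CS against TCP, and no direction is given for this gene. ITGA7, a further laminin receptor subunit best known from muscle, had levels of -0.08, -0.22 and 0.11.

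The collagen-binding subunits differed among themselves. ITGA1 had levels of -1.5, -1.05 and -0.77 on TCP, CS and CSHA. It was higher on CSHA than on TCP by 0.73 ± 0.17, or 1.66-fold. ITGA2 had levels of -3.09, -3.82 and -3.01, and was lower on CS than on TCP by 0.73 ± 0.17 and higher on CSHA than on CS by 0.81 ± 0.17. TCP and CSHA differed by 0.08 for ITGA2, less than the spot error, but by 0.51 under spike-in scaling, and with normexp the CS difference from TCP was -0.36. ITGA10 was measured on CSHA alone, at -3.31, with bounds of 0.22 over TCP and 0.85 over CS. ITGA11 was measured on CS at -3.80 and on CSHA at -3.04. The CSHA level of ITGA11 was higher than that on CS by 0.76 ± 0.17, and over TCP the bound was 0.66. ITGA2, ITGA10 and ITGA11 lay close to the lowest levels called well above background, which were -3.88, -4.32 and -3.90 on TCP, CS and CSHA.

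ITGA5, which with ITGB1 forms the classical fibronectin receptor, was well above background on CS alone. Its processed signals were 21.0 on TCP, 65.5 on CS and 20.2 on CSHA, from 1 spot per array. CS was therefore at least 2.28-fold higher than TCP and at least 2.31-fold higher than CSHA. With the background corrected by normexp, the differences were 0.21 for CS minus TCP and -0.17 for CSHA minus CS, and the gene was no longer past 2-fold. ITGAV, whose probe was printed 10 times, had mean levels of 3.0 ± 0.05 (SD, 10 spots) on TCP, 3.02 ± 0.04 (10 spots) on CS and 3.25 ± 0.05 (9 spots) on CSHA. Spots on CSHA, from 3.18 to 3.32, did not overlap those on TCP, from 2.91 to 3.05, whereas TCP and CS spots did overlap.

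ITGA9, a receptor subunit for tenascin and other matrix proteins, had levels of -1.94, -1.62 and -1.29. It was higher on CSHA than on TCP by 0.65 ± 0.17, or 1.57-fold. ITGAE, which with ITGB7 binds E-cadherin and is known from intraepithelial lymphocytes, had levels of 2.42 on TCP, 2.36 on CS and 1.73 on CSHA. CSHA was lower for ITGAE by 0.70 ± 0.07 than TCP and by 0.63 ± 0.06 than CS, while TCP and CS differed by less than 2 spot errors. Its partner ITGB7 went the other way, with levels of 2.71, 2.75 and 2.98. Of the leukocyte markers, PTPRC stayed between -3.17 and -3.01. CD3E was 3.37-fold lower on CSHA than on TCP and at least 6.89-fold lower on CS, while on CSHA CD14 was 2.05-fold, CD68 2.01-fold and CD3D at least 2.23-fold higher than on TCP. Their part in the ITGAE and ITGB7 values was not tested.

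The beta subunits differed in opposite directions on CSHA. Of the 6 beta subunits measured, 5 had higher values on CSHA than on TCP (83.3%, all genes 61.7%) and ITGB5 was lower. The CSHA differences of ITGB6 and ITGB8 from TCP were within 2 spot errors. ITGB1 (NM_133376), the common partner of most alpha subunits, had mean levels of 2.56 ± 0.05 (SD, 10 spots) on TCP, 2.79 ± 0.04 (10 spots) on CS and 3.20 ± 0.05 (10 spots) on CSHA. Its spots ran from 2.50 to 2.64, from 2.75 to 2.89 and from 3.13 to 3.30, so no array overlapped another. CSHA was higher than TCP by 0.64 ± 0.02 for ITGB1, or 1.55-fold, and CS by 0.23 ± 0.02. Under spike-in scaling the CSHA difference from TCP was 1.06 for ITGB1, 1.04 for LAMB1, 1.16 for ITGA1 and 1.08 for ITGA9, each past 2-fold.

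ITGB5 (NM_002213), which pairs with ITGAV and binds vitronectin, had levels of 4.12 on TCP, 3.68 on CS and 3.15 on CSHA. It was lower on CS by 0.45 ± 0.05 and on CSHA by 0.98 ± 0.06, or 1.97-fold, just short of the rule of size. The CSHA difference of ITGB5 passed 2-fold under quantile normalization (-1.05) and with the percentile over detected probes, and was -0.55 under spike-in scaling. ITGB4, the hemidesmosomal subunit, had levels of 5.74, 5.53 and 5.99. Its CS level was lower than that on TCP by 0.20 ± 0.05 and its CSHA level higher by 0.25 ± 0.06. ITGB6, an epithelial partner of ITGAV, had levels of -1.32, -0.98 and -0.99, and ITGB8, another partner of ITGAV, had levels of -0.56, -0.54 and -0.33. The widest of their differences from TCP was 0.34 ± 0.17, for ITGB6 on CS.

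Of the laminin chains, LAMA5 was lower and LAMB1 higher on CSHA. LAMA5 (NM_005560), the alpha chain of the main laminin of adult epithelial basement membrane, had levels of 1.96 on TCP, 1.45 on CS and 1.12 on CSHA. It was lower on CS by 0.51 ± 0.07 and on CSHA by 0.84 ± 0.08, or 1.79-fold. LAMB1 (NM_002291), a beta chain that can join LAMA5, had levels of 3.94 on TCP, 3.94 on CS and 4.55 on CSHA. CSHA stood 0.61 ± 0.06 above each of the others for LAMB1, or 1.53-fold over TCP. LAMC1, the gamma chain that completes these trimers, had levels of 1.44, 1.25 and 1.31, and its difference of -0.13 on CSHA was within 2 spot errors and turned to 0.30 under spike-in scaling.

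LAMA3 and LAMB3, laminin chains of epithelial basement membrane, showed smaller differences. LAMA3 had levels of 2.31, 2.36 and 2.66 on TCP, CS and CSHA, and was higher on CSHA by 0.34 ± 0.06. LAMB3 had levels of 4.27, 3.98 and 4.27, and was lower on CS alone, by 0.29 ± 0.05. COL17A1, the transmembrane collagen of hemidesmosomes, had levels of 0.87, 0.87 and 1.32 and was higher on CSHA by 0.44 ± 0.08.

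**Figure D4:**
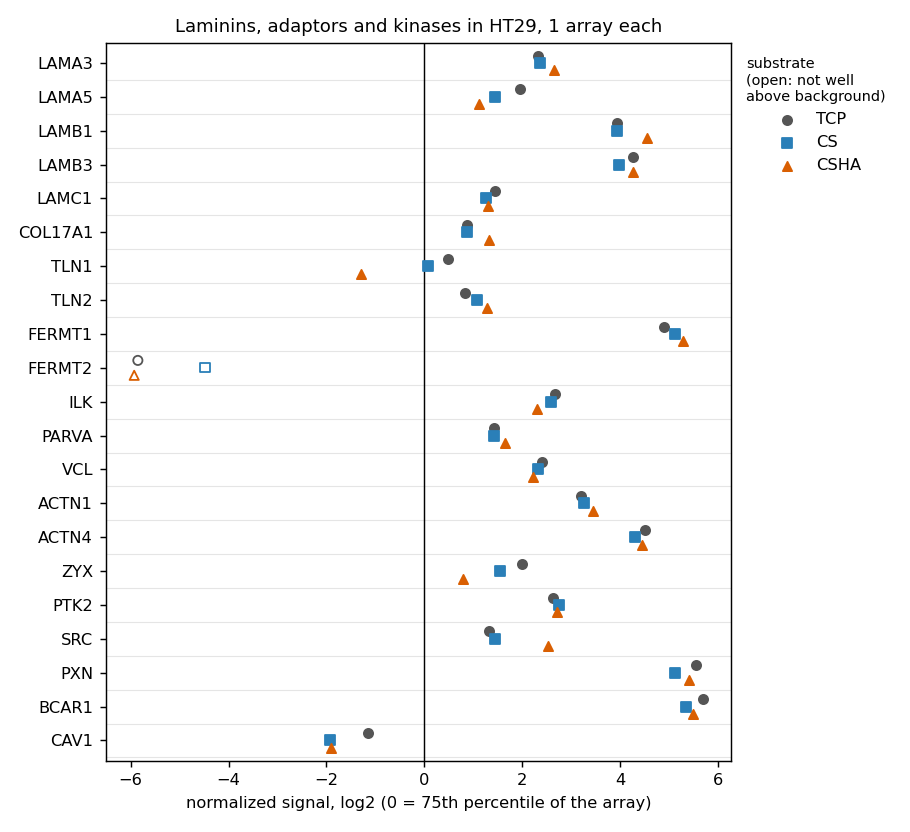
Normalised signal of the 21 laminin chains, linkers, kinases and scaffolds (x axis, log2, 0 at the 75th percentile of each array) on TCP (circles), CS (squares) and CSHA (triangles), 1 array each, with open symbols for probes not well above background. TLN1 and ZYX were lowest on CSHA and SRC was highest there, while VCL and PTK2 lay close together on the 3 arrays.

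The linkers between integrins and actin held the widest gap from TCP among the members, that of TLN1 on CSHA. TLN1 (NM_006289), talin, which binds the beta subunit tail and brings the integrin into its active form, had processed signals of 493 on TCP, 446 on CS and 138 on CSHA. Its normalised levels were 0.48, 0.08 and -1.29. CSHA was lower than TCP by 1.77 ± 0.13, or 3.41-fold, and lower than CS by 1.37 ± 0.13, or 2.59-fold, from 1 probe with 1 spot per array. With spike-in scaling these differences were -1.34 and -0.997, the second just short of 2-fold. The related TLN2 had levels of 0.83, 1.08 and 1.28 and was higher on CSHA by 0.45 ± 0.08. The talin genes thus stood in opposite order over the 3 arrays.

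ZYX (NM_003461), zyxin, which gathers at focal adhesions and actin fibres under tension, had processed signals of 1403, 1238 and 585 and levels of 1.99 on TCP, 1.55 on CS and 0.79 on CSHA. CSHA was lower than TCP by 1.19 ± 0.08, or 2.28-fold, and lower than CS by 0.76 ± 0.07. Under spike-in scaling the difference from TCP was -0.76, short of 2-fold. Vinculin (VCL), which reinforces the talin link to actin, had levels of 2.40, 2.32 and 2.23 and was lower on CSHA by 0.17 ± 0.07, but under spike-in scaling it was higher by 0.26.

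Of the other linkers, FERMT1, the epithelial kindlin, had levels of 4.89, 5.12 and 5.29, and both of its probes were higher on CSHA than on TCP, by 0.40 and 0.80. The integrin-linked kinase ILK had levels of 2.67, 2.58 and 2.31, and its CSHA difference from TCP was -0.36, or 0.07 under spike-in scaling. Its partner PARVA had levels of 1.42, 1.43 and 1.64. The actinins, which crosslink actin, had levels of 3.20, 3.27 and 3.44 for ACTN1 and of 4.5, 4.30 and 4.45 for ACTN4, whose CSHA difference of -0.05 was within 2 spot errors and turned to 0.38 under spike-in scaling.

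SRC was the one signalling gene past 2-fold. SRC (NM_005417), the tyrosine kinase that acts with FAK at focal adhesions, had mean levels of 1.32 ± 0.02 (SD, 9 spots) on TCP, 1.44 ± 0.06 (10 spots) on CS and 2.53 ± 0.03 (10 spots) on CSHA. Its spots on CSHA, from 2.47 to 2.57, lay above every spot on TCP, from 1.28 to 1.35, and on CS, from 1.32 to 1.52. CSHA was higher by 1.21 ± 0.01 than TCP, or 2.32-fold, and by 1.09 ± 0.02 than CS, or 2.13-fold. With normexp the SRC difference between CSHA and CS was 0.996, just short of 2-fold. PTK2, which encodes FAK, had levels of 2.63, 2.75 and 2.72, and its difference of 0.09 between CSHA and TCP was within 2 spot errors.

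The scaffolds were lower on CS than on TCP. PXN, paxillin, had levels of 5.55, 5.12 and 5.41 and a difference of -0.43 on CS. BCAR1, the docking protein also called p130Cas, had levels of 5.69, 5.34 and 5.49 and a difference of -0.35 on CS. On CSHA the differences of PXN and BCAR1 from TCP were -0.14 and -0.20, and under spike-in scaling 0.29 and 0.23. CAV1, caveolin, which can link integrins to SRC family kinases, had levels of -1.15, -1.92 and -1.91 and was lower on CS by 0.77 ± 0.17 and on CSHA by 0.76 ± 0.17. A second CAV1 probe, printed 10 times, was lower by 0.65 and 0.55. The CSHA difference of the first CAV1 probe from TCP was -0.42 with normexp and -0.33 under spike-in scaling.

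**Figure D5:**
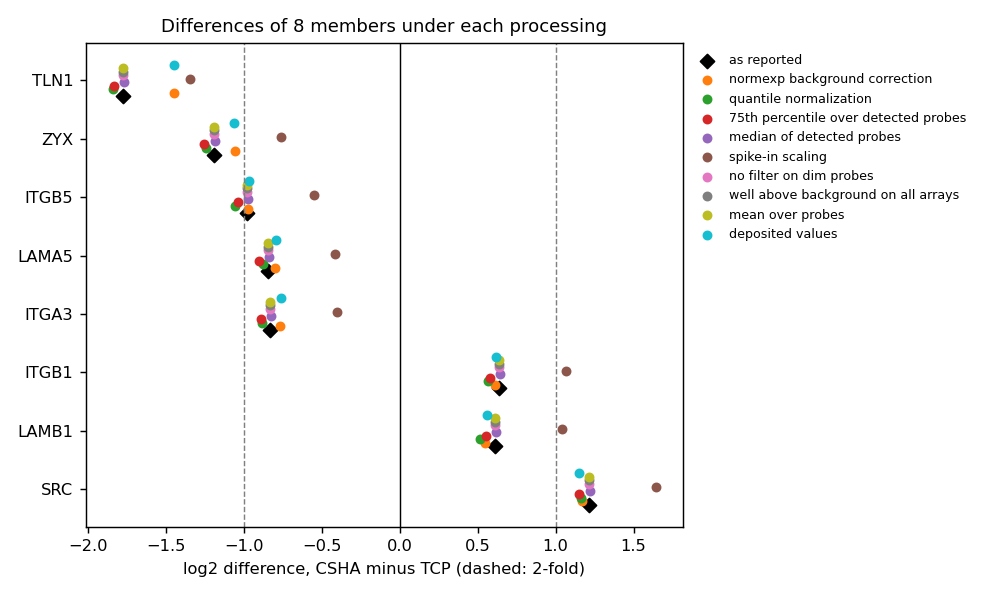
Log2 difference of CSHA from TCP (x axis) for 8 members as reported (black diamonds) and under 9 other ways of processing (coloured circles), with dashed lines at 2-fold. Every gene kept its side of 0, with TLN1 between -1.83 and -1.34, ZYX between -1.25 and -0.76 and SRC between 1.15 and 1.64, and spike-in scaling lay highest for each of the 8 genes.

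The promoters of 3 of the genes with levels ordered over the surfaces are shown, TLN1 and ZYX from high on TCP to low on CSHA and ITGB1 the other way. ITGB5, LAMA5 and TLN2 were also ordered and had a promoter entry, but are not shown. The sequences are RefSeq's for GRCh38.p14 and run 5′ to 3′ on the gene's strand over 300 bases, 250 before and 50 after the transcription start. Capitals mark GC boxes (GGGCGG or its reverse complement CCGCCC) and, in ITGB1, the TEAD motif GGAATG.
TLN1 promoter, chr9:35732146-35732445, minus strand: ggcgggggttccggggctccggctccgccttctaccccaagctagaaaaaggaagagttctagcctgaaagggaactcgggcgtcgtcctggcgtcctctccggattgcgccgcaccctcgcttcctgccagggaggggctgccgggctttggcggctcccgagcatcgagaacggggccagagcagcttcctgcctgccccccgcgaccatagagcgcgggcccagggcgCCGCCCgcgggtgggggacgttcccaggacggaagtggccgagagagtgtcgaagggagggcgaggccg
ZYX promoter, chr7:143381095-143381394, plus strand: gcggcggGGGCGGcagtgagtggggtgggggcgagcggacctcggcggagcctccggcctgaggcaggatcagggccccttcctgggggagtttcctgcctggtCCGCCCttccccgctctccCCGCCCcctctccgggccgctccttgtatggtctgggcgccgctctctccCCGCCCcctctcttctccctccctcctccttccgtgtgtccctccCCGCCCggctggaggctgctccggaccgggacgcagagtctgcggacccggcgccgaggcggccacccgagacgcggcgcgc
ITGB1 promoter, chr10:32958181-32958480, minus strand: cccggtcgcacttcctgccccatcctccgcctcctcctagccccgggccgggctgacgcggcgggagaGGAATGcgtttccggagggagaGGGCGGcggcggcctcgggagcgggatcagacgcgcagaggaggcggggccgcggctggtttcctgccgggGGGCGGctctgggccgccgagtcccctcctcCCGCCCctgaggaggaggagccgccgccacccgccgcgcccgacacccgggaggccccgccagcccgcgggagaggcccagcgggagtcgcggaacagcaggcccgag
The TLN1 window held 1 GC box, the ZYX window 5, and the ITGB1 window 3 GC boxes with 1 TEAD motif. RefSeq windows were matched for 30 of the 40 members. Over both strands, GC boxes were found in 20 of these 30 (66.7%) and in 58.5% of 15843 protein-coding promoters. The TEAD motif was found in 4 members, ITGA5, ITGA10, ITGB1 and VCL (13.3%, all promoters 11.7%). The AP-1 motif TGANTCA was found in ACTN4, BCAR1, ITGA5 and LAMA3 (13.3%, all promoters 5.75%), and the CArG box, bound by serum response factor, in ITGB6 alone (3.33%, all promoters 1.21%). Such a match describes letters and not binding.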

How the data were processed

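RNA of HT29 cells from TCP, CS and CSHA was measured on 3 single-colour Agilent arrays of 1 slide, 1 array per condition. Spot intensities and flags were deposited as Feature Extraction 10.7.3.1 wrote them, per the file headers. The authors also deposited log2 values, shifted and then centred on each spot, which served as an alternative (0 columns had no sample). The labels and the methods name different extraction and labelling kits.

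The processed signal, already corrected for background by the software, was raised to a floor of 1, outlier spots were left out, spots of a probe were averaged, and log2 values were shifted by the 75th percentile of all non-control probes. Of 50599 probes, 30004 matched a symbol by accession through RefSeq (GRCh38.p14), used for names because the files follow an older build, and the brightest probe stood for a gene. Where the signal was called well above background on only 1 array of a comparison, a lower bound was taken against the higher of the dim signal and that array's lowest signal well above background. With 1 array per condition, no p-value was computed, and sizes were counted at 2-fold.

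Levels on the arrays where they were measured are given for members past 1.5-fold in any comparison and for each integrin and laminin measured. ITGA5 is given by processed signals. Pathway genes past 2-fold are given by fold values or lower bounds, with levels for FLNA alone. Some genes of these lists are not reported here. Levels of the remaining linkers and scaffolds were added after their values were seen. The members and lists were chosen with earlier results of these data known. Scripts were tested on simulated data and run in Python 3.11.15 (numpy 2.4.6, pandas 2.3.3) and R 4.3.3 (limma 3.58.1, normexp with offset 50).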

Additional observations from a re-analysis of the deposited data

How the results depend on the processing

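No paired analysis was possible because each condition was 1 array. The alternatives were normexp background correction, quantile normalization, the 75th percentile or median of detected probes, spike-in scaling, no filter on dim probes, a filter on all 3 arrays, the mean over probes and the deposited values, with other thresholds for counts. Of 961 values for single members, 848 stayed within 2 spot errors of the value as reported. A further 105 moved by more than that, and 8 turned from a value past 2 spot errors to the other sign. Counting every size, 39 changed sign, these 8 and 31 from a smaller value, and 14 of the 39 did so under spike-in scaling. Of 96 counts and medians, 70 stayed close and 26 moved, as follows. Members past 2-fold on the high side for CS against TCP numbered 0 with normexp, the filter on all arrays or the deposited values, and 2 without a filter. On CSHA against TCP, spike-in scaling gave 6 higher (ITGA1, ITGA9, ITGA11, ITGB1, LAMB1 and SRC) and 1 lower (TLN1). On CSHA against CS, it gave 4 higher (ITGA2, ITGA10, ITGA11 and SRC) and 0 lower, normexp gave 0 higher and 1 lower, and the filter on all arrays and the deposited values each gave 1 lower. A 1.5-fold rule gave 2 lower on CS, 6 higher and 7 lower on CSHA against TCP, and 5 higher and 4 lower against CS. A 3-fold rule gave 0 higher on CS, 0 higher and 1 lower on CSHA against TCP, and 0 either way against CS. The median on CSHA against TCP was 0.13 with quantile normalization, 0.087 without a filter and 0.63 with spike-in scaling, and against CS it was 0.58 with spike-in scaling. Among values past 2 spot errors, spike-in scaling turned the sign of VCL (0.26), PXN (0.29), ILK (0.066) and BCAR1 (0.23) on CSHA against TCP and of ITGA3 (0.0698), ILK (0.10) and LAMA5 (0.0493) on CSHA against CS. Among smaller values it turned ITGA6 (0.41), ACTN4 (0.38) and LAMC1 (0.30) on CSHA against TCP, VCL (0.29), PTK2 (0.34) and ITGB6 (0.37) on CSHA against CS, and COL17A1 (0.05) on CS. The mean over probes turned BCAR1 (0.57 on CSHA against TCP), whose second probe was measured on CSHA alone. Beyond the constructions named, the cause was not tested. Signal close to background limits ITGA2, ITGA5, ITGA10 and ITGA11, and 34 members rest on 1 probe.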

Other observations

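The same pathways were followed through 77 further genes in 5 lists. Of these, 57 could be compared between CS and TCP, 58 between CSHA and TCP and 59 between CSHA and CS, and their median differences were -0.10, -0.05 and 0.04. At the 2-fold rule, 1, 3 and 3 of them were higher and 1, 3 and 2 were lower, where the shares over all genes were 1.36%, 3.02% and 2.27% higher and 1.92%, 3.98% and 2.15% lower. FLNA, an actin crosslinker that binds integrin tails in competition with talin, had levels of 4.14, 3.22 and 2.40 on TCP, CS and CSHA. It was 3.35-fold lower on CSHA than on TCP, but its second, dimmer probe was higher there by 1.43, so the direction for FLNA on CSHA is unsettled. On CS both FLNA probes were lower than on TCP, by 0.92 and 0.91. LIMS2, a PINCH protein that joins ILK, was 2.61-fold higher on CSHA than on TCP by its brightest probe, and a dim second probe gave the opposite sign. PARVG, a parvin known from blood cells, was measured on CS alone and was at least 2.69-fold higher there than on TCP and at least 2.72-fold higher than on CSHA.

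Among the matrix ligands, TNC, tenascin C, was 3.31-fold lower on CS than on TCP, and on CSHA it was not well above background and was at least 2.92-fold lower. COL7A1, the anchoring fibril collagen, was at least 2.51-fold higher on CSHA than on CS. Of the laminin chains outside the 40 genes, LAMC3 was at least 2.44-fold higher on CSHA than on TCP and 2.17-fold higher than on CS by 1 of its 3 probes, the others not being well above background, and LAMA2 was at least 3.25-fold lower on CSHA than on CS. ITGA2B, the platelet integrin subunit, was measured on CSHA alone and was at least 3.23-fold higher there than on TCP and at least 4.39-fold higher than on CS, while its partner ITGB3 was not well above background on any array. TNC, COL7A1, LAMC3, LAMA2, ITGA2B and PARVG were all dim, with 1 spot per array. Their highest processed signal was 92.3, for LAMA2 on CS. The lowest signals well above background were 24.1, 21.1 and 22.6 on TCP, CS and CSHA. These genes were not rerun under the other ways of processing, so their fold values are uncertain. The leukocyte subunits ITGA4, ITGAL, ITGAM, ITGAX and ITGAD, and fibronectin (FN1), were not well above background on any array. None of the 7 hemidesmosome and tetraspanin partners differed by 2-fold, with differences from TCP between -0.92 and -0.07 on CS and between -0.59 (plectin, PLEC) and 0.37 (CD82) on CSHA.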
